A study of Mus musculus with 6 samples.

Results

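Lipid droplet coat and assembly genes encode the proteins that build the fat-storing droplet at the endoplasmic reticulum and cover its surface. The group was chosen by name, with earlier results of these data known, so its counts beside all genes are description only. It holds 10 genes, the perilipins Plin1 to Plin5 and Cidec, Fitm1, Fitm2, Bscl2 and Adig. Of these 9 had a probe set that the platform annotation assigns to that symbol alone, out of 18193 such genes on the array, and the expression of Plin1 was not analysed here. Mouse mesenchymal stem cells, precursors able to turn into fat cells, were grown in dishes in medium with 5% serum that received 1 µM rosiglitazone, 5 µg/ml insulin, 100 µM isobutylmethylxanthine and 1 µM dexamethasone anew 48 h before the run, a mixture that drives fat-cell formation. Control and irradiated cultures alike received it, and both were held at 26 to 27 °C. The irradiated culture was exposed for 2 h to continuous terahertz laser light at 2.52 THz (wavelength 118.8 µm), the control stood beside it unexposed, and RNA was taken at once. The experiment was run 3 times with 1 culture per group each time, which gave 6 arrays. The labels name 1 commercial cell product and no strain or age, the adipogenic mixture was in every culture, and no culture without it was compared. The study asks which transcripts change under the exposure.

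As background, triglyceride is made in the membrane of the endoplasmic reticulum, where Fitm proteins bind it and Bscl2, or seipin, shapes the budding droplet and its neck. Perilipins then coat the surface and set how readily lipases reach the stored fat, and Cidec joins small droplets into large ones. In fat cells several of these genes are switched on by Pparg, the nuclear receptor that rosiglitazone activates.

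No coat or assembly gene was called different after irradiation. Fitted with a block for the experiment, limma called 0 of 9 at a Benjamini-Hochberg adjusted p under 0.05, as it called 0% of all 18193 genes. At an unadjusted p under 0.05 it gave 1 of the 9, Adig, where 3.31% of all genes reached it. In none of the 9 did the irradiated arrays lie apart from the controls, against 8.26% of all genes. The largest values came from 1 of the 3 experiments, number 2, in which Adig, Plin4, Cidec and Fitm2 were 1.92-, 1.83-, 1.67- and 1.43-fold lower in the irradiated culture. In the other experiments these 4 genes differed by 0.33 log2 units or less.

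For 3 of those 4 genes the 250 bases before the RefSeq start site (assembly GRCm38.p6) lie outside the annotated gene and are shown, 5′ to 3′ on the gene's strand, since these genes were low together in experiment 2. Capitals mark AGGTCA, the hexamer that nuclear receptors such as the Pparg protein read, on either strand. Adig lies on chromosome 2 (chr2:158502362-158502611, plus strand), Cidec on chromosome 6 (chr6:113435761-113436010, minus strand) and Fitm2 on chromosome 2 (chr2:163472630-163472879, minus strand).
Adig: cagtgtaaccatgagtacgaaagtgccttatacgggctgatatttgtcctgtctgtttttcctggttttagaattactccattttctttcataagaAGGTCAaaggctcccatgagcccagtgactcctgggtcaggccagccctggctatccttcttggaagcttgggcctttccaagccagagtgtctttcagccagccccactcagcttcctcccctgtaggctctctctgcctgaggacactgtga
Cidec: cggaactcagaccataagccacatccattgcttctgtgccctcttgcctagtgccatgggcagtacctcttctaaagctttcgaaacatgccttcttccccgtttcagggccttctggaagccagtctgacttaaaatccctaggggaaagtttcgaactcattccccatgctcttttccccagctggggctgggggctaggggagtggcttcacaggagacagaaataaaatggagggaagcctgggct
Fitm2: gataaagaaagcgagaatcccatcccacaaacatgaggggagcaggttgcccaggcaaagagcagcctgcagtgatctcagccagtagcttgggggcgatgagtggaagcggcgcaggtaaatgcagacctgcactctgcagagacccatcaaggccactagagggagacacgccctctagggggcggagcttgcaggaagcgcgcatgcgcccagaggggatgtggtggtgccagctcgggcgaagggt
Only the Adig stretch of these 3 held the hexamer, starting 154 bases before the start site. Over all 14 start sites listed for the 10 genes, 4 windows of 250 bases held it, 1 each of Adig, Bscl2, Plin2 and Plin5, against 14.0% of 32851 windows in the table. A direct repeat of the hexamer with 1 base between the copies was in 0 of the 14 and in 0.0335% of all windows, and the E-box CACGTG was in 0 of the 14 and in 6.02% of all. The Plin4 window had none of these motifs. Plin4, Plin5 and Plin3 all lie on chromosome 17, with 1648 bases between Plin4 and Plin5 and 161355 between Plin5 and Plin3.

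Levels place each gene on the array's log2 scale, on which the median gene lay at 6.46, and they are no ratio between genes because each probe set has its own brightness. Of the 9 measured genes 8 were at or above that median. Plin5, a perilipin of heart, muscle and brown fat, was the exception with a mean level of 5.06, and 35.8% of genes were dimmer. Fitm1, known from skeletal muscle, had a mean level of 6.94, and 55.0% of genes were dimmer. Near the top of the array, 99.2% of genes were dimmer than the probe set of Plin2, 99.0% than that of Bscl2 and 97.7% than that of Cidec.

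**Figure D1:**
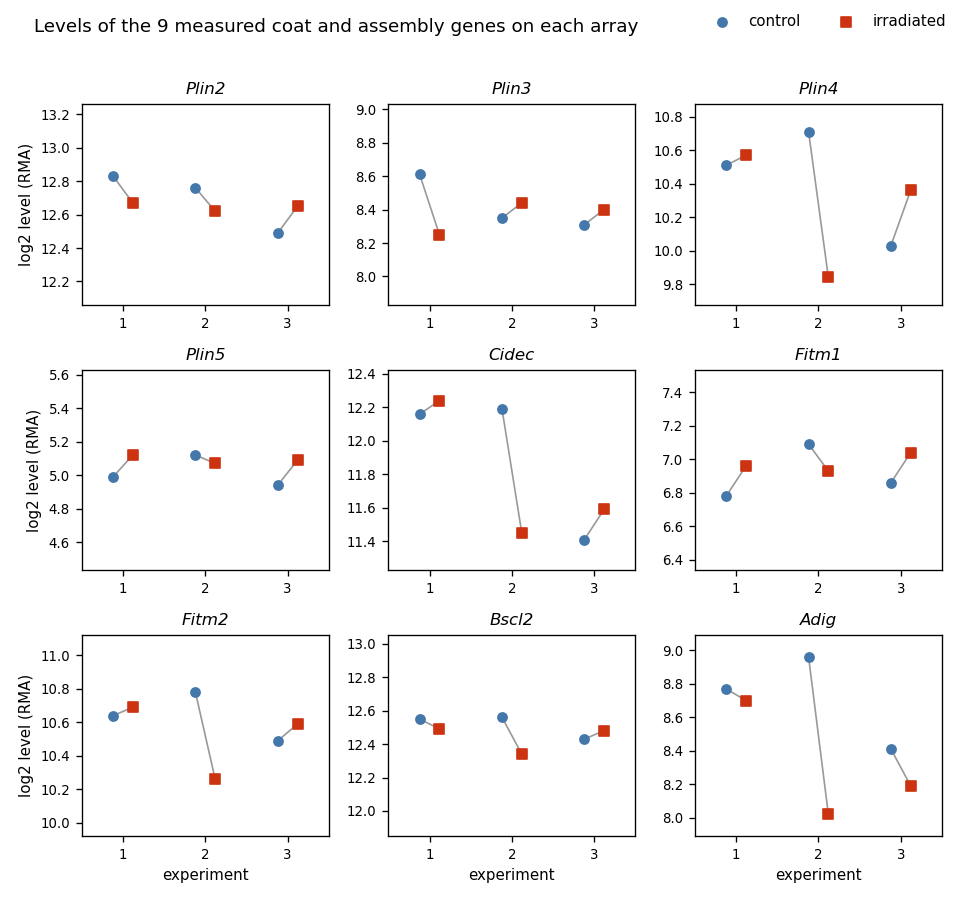
Log2 RMA level (vertical axis, 1.2 log2 units in every panel) of each measured gene in experiments 1 to 3 (horizontal axis). Blue circles are controls, red squares irradiated cultures, and a grey line joins the cultures of 1 experiment. The step down in experiment 2 is largest for Adig (8.96 to 8.02) and Plin4 (10.71 to 9.84), and Plin5 (5.12 to 5.07) has the smallest.

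Among the coat proteins, Plin4, a perilipin of fat cells that covers small new droplets, varied most. Its levels in experiments 1 to 3 were 10.51, 10.71 and 10.03 in the controls and 10.57, 9.84 and 10.36 in the irradiated cultures. The irradiated culture was the higher one in experiments 1 and 3 and the lower one in experiment 2, and the groups overlapped. The mean difference, irradiated minus control, was -0.16 log2 units (SE 0.21, 95% interval -0.67 to 0.35, n = 3 pairs, unadjusted p 0.479 and Benjamini-Hochberg adjusted p 0.995 in limma). Without experiment 2 it was 0.195, on the other side of 0. The 3 controls alone spanned 0.68 log2 units, an SD of 0.35, which exceeded that of 97.8% of genes.

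Plin2, the most widely expressed coat protein, which is stable only while bound to lipid, was bright. Control levels were 12.83, 12.76 and 12.49 and irradiated levels 12.67, 12.62 and 12.65. The irradiated arrays lay within 0.05 log2 units of each other, inside the span of the controls. Those spanned 0.34, an SD of 0.18 that exceeded that of 79.3% of genes, and the SD over all 6 arrays exceeded that of 53.6%. The mean difference of -0.047 (SE 0.095, 95% interval -0.27 to 0.18, n = 3 pairs) did not pass (limma, Benjamini-Hochberg adjusted p 0.995). Plin3, a coat protein that shuttles between cytosol and nascent droplets, read 8.61, 8.35 and 8.31 in the controls and 8.25, 8.44 and 8.40 in the irradiated cultures. Here experiment 1 stood out, with a difference of -0.36 against 0.09 in both other experiments. Plin3 was also the only gene of the 9 that was higher in the irradiated culture of experiment 2. The mean was -0.06 (SE 0.11, 95% interval -0.33 to 0.21), and 0.09 without experiment 1.

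Plin5 read 4.99, 5.12 and 4.94 in the controls and 5.12, 5.07 and 5.09 in the irradiated cultures. It differed by 0.077 log2 units (SE 0.083, 95% interval -0.12 to 0.28). Its second probe set, at a mean level of 4.18, gave -0.19, -0.03 and 0.51 in the 3 experiments against 0.13, -0.05 and 0.15 for the brighter one. The probe sets differed in sign in experiment 1, and RMA tends to understate changes at such low levels.

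Cidec, which sits where droplets touch and moves lipid from the smaller to the larger, had the widest spread over the 6 arrays. Its control levels were 12.16, 12.19 and 11.41 and its irradiated levels 12.24, 11.45 and 11.59. The low values were the irradiated culture of experiment 2 and both cultures of experiment 3, so that the control of experiment 3 was as low as the irradiated culture of experiment 2. The differences were 0.08, -0.74 and 0.18, with a mean of -0.16 (SE 0.18, 95% interval -0.58 to 0.26, n = 3 pairs, adjusted p 0.995 in limma with Benjamini-Hochberg). Without experiment 2 the mean was 0.13. The SD over the 3 controls was 0.44 log2 units, larger than that of 99.2% of genes, and the mean difference was smaller than it.

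Adig, or adipogenin, a small membrane protein of fat cells that appears as they form, was the only one of the 9 to be lower in all 3 experiments, a pattern of 12.8% of all genes. Control levels were 8.77, 8.96 and 8.41 and irradiated levels 8.70, 8.02 and 8.19. The groups overlapped, since the irradiated culture of experiment 1 was brighter than the control of experiment 3. The differences were -0.07, -0.94 and -0.22, with a mean of -0.41 log2 units (SE 0.17, 95% interval -0.81 to -0.01, n = 3 pairs). limma gave an unadjusted p of 0.0442 and a Benjamini-Hochberg adjusted p of 0.995. Over 11 other settings the mean lay between -0.58 and -0.145. Adig has 1 probe set, so only the centring and the experiments left out could move that mean. Unadjusted p ran from 0.0262 to 0.266 in limma and the ordinary paired test, and adjusted p from 0.926 to 1. The unadjusted p was below 0.05 in 4 of the settings, all with the unchanged mean of -0.41. No gene of the 9 was higher in all 3 experiments, where 8.23% of all genes were.

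In the assembly group, Fitm2, the broadly expressed triglyceride-binding protein needed for droplet formation, was lower in the irradiated culture of experiment 2 alone. It read 10.64, 10.78 and 10.49 in the controls and 10.69, 10.26 and 10.59 in the irradiated cultures, which overlapped. The irradiated culture of experiment 2 was the lowest of the 6. The differences were 0.05, -0.52 and 0.10, with a mean of -0.12 (SE 0.13, 95% interval -0.44 to 0.19), and 0.075 without experiment 2. Its relative Fitm1 read 6.78, 7.09 and 6.86 in the controls and 6.96, 6.93 and 7.04 in the irradiated cultures. The mean difference of Fitm1 was 0.067 (SE 0.098), with 0.18, -0.16 and 0.18 in the experiments.

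Bscl2, mutated in an inherited lack of body fat, was bright on every array. Control levels were 12.55, 12.56 and 12.43 and irradiated levels 12.49, 12.34 and 12.48. The SD over the 6 arrays was 0.082, larger than that of 28.0% of genes. In experiment 2 it stood at -0.22, and 11.3% of genes had a lower value there. The mean difference was -0.077 (SE 0.087, 95% interval -0.28 to 0.13). A dimmer probe set, at a mean level of 10.09, gave 0.02, -0.16 and 0.16 and a mean of 0.0067, and both probe sets were below 0 in experiment 2.

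**Figure D2:**
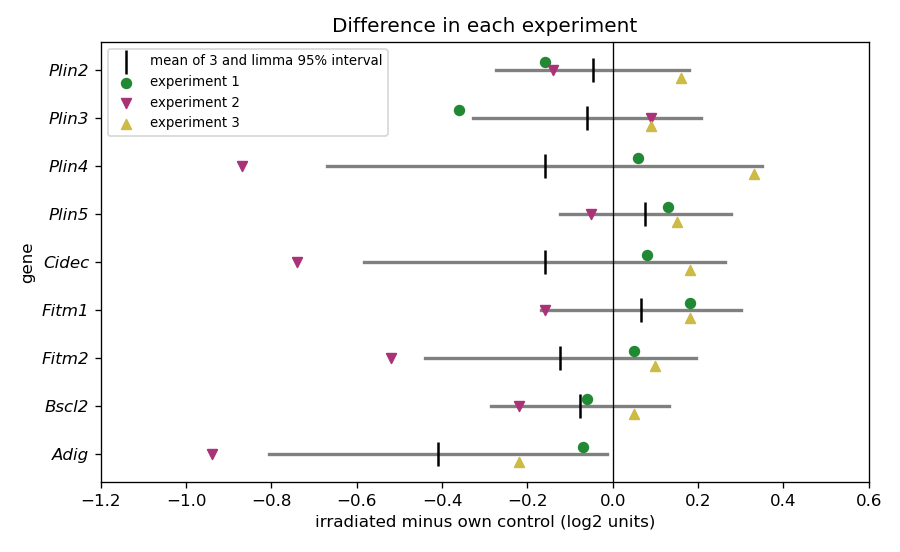
Difference between irradiated culture and own control in log2 units (horizontal axis) for each measured gene (vertical axis). Coloured symbols are experiments 1 to 3, black ticks the mean of 3 and grey bars limma's 95% interval. Experiment 2 lies farthest left for Adig, Plin4, Cidec and Fitm2, and only the bar of Adig, ending at -0.01, leaves out 0.

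Experiment by experiment, the 9 genes had a median difference of 0.05, -0.22 and 0.15 log2 units, beside -0.03, -0.01 and 0 over all genes. In experiment 2 they were lower in 8 of 9, in experiment 1 in 4 and in experiment 3 in 1. With medians this near 0 over all genes, values below 0 are common in every experiment. The course of lower in experiment 2 and higher in experiments 1 and 3 was that of 5 of the 9, Plin4, Plin5, Cidec, Fitm1 and Fitm2, and of 9.83% of all genes. Plin5 entered that count with -0.05 in experiment 2, and its second probe set was lower in experiment 1, at -0.19. A value lower by at least 0.5 log2 units (1.41-fold), a limit set after the values were seen, was reached in experiment 2 by 4 of 9 and by 1.47% of all genes. In experiments 1 and 3 it was reached by 0 of 9, and by 0.808% and 0.951% of all genes. Only 0.115% of genes had a lower value than Adig in experiment 2, 0.159% than Plin4, 0.275% than Cidec and 1.14% than Fitm2. With 1 culture per group in an experiment, the difference between experiments could not be tested. Over all 3 experiments the median of the 9 means was -0.077, against -0.01 over all genes, and without experiment 2 it was 0.075.

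**Figure D3:**
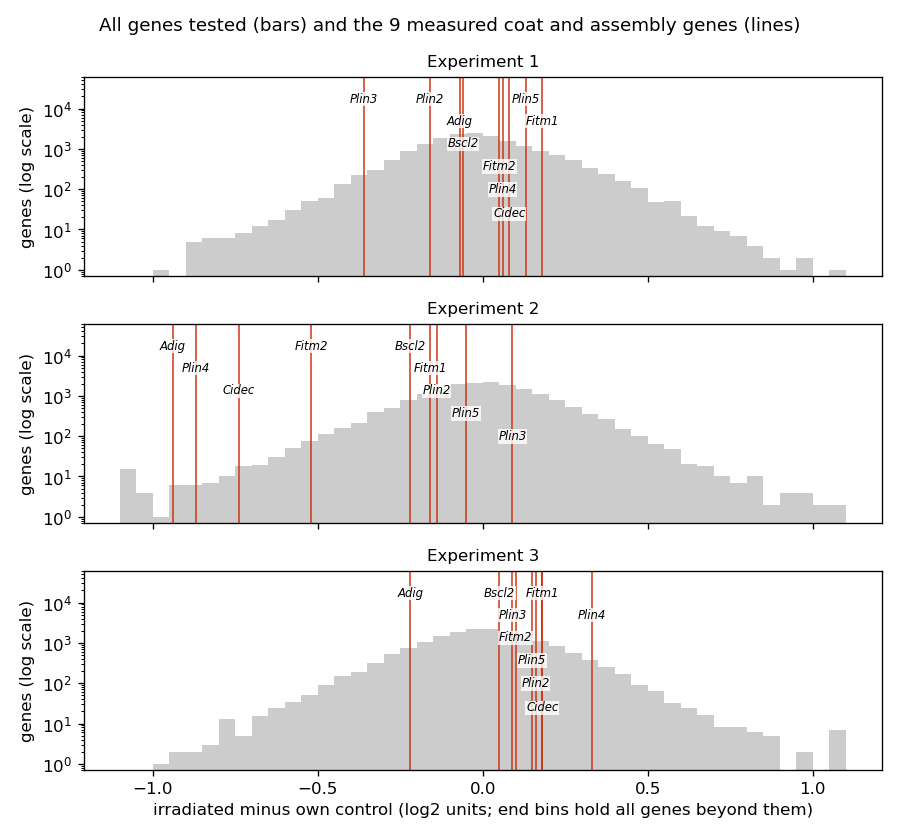
Number of genes (vertical axis, log scale) by difference between irradiated culture and own control in log2 units (horizontal axis), 1 panel per experiment. Grey bars are all 18193 genes and red lines the 9 measured coat and assembly genes. In experiment 2 Adig, Plin4 and Cidec lie in the sparse lower tail at -0.94, -0.87 and -0.74, and in experiments 1 and 3 no line lies below -0.36.

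Set against each gene's own mean over the 6 arrays, 7 of 9 genes were above it in the control of experiment 1, 7 in its irradiated culture and 8 in the control of experiment 2. In the irradiated culture of experiment 2 it was 2 of 9, and in that of experiment 3 it was 6. Median deviations were 0.16 and 0.065 log2 units in the control and irradiated cultures of experiment 1, 0.147 in the control of experiment 2 and -0.135 in the irradiated culture of experiment 2. Over all genes the median deviations of the 6 arrays lay between -0.0067 and 0.0133. The control of experiment 3 was below its genes' means in 9 of 9, with a median deviation of -0.098 log2 units. That array also stood apart in the control probe sets for the ends of actin and Gapdh, by which RNA quality is read. Its 3′ minus 5′ difference was 0.68 for actin, where the other 5 arrays lay between 0.50 and 0.57, and 0.11 for Gapdh, where the others lay between -0.10 and -0.08. The part of this in the higher values of experiment 3 was not tested. Without experiment 3 the median of the 9 genes was -0.15, and both cultures of experiment 2 had actin values within the range of the rest.

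Genes that share the droplet with these proteins were counted in the same fit. None of 38 other droplet proteins passed limma at an adjusted p under 0.05. At an unadjusted limma p under 0.05, 1 was lower (G0s2) and 1 higher (Vps13c, a lipid transfer protein), where 3.31% of all genes reached it. Vps13c was dimmer than the median gene, with a mean level of 4.50. The median difference of the 38 was -0.01 log2 units, the same as over all genes, and -0.04 in experiment 2. In that experiment 5 of the 38 were lower by at least 0.5. Lipe, hormone-sensitive lipase, stood at -1.17, G0s2, an inhibitor of Pnpla2, at -1.10, Pnpla2, which takes the first fatty acid off triglyceride, at -0.83, Mgll, which takes off the last, at -0.65 and Abhd5, the activator of Pnpla2 that perilipins hold back, at -0.58. Lipe, Pnpla2, Mgll and Abhd5 have dimmer probe sets too, which are not shown. Other lipases and lipase regulators of the list were not as low. Pnpla3 was at 0.11, Nceh1, a cholesterol ester hydrolase, at -0.01 and Hilpda, an inhibitor of Pnpla2, at -0.20. Pnpla3 was dimmer than the median gene, with a mean level of 5.05, where RMA tends to understate changes. G0s2 was at 0.13 in experiment 1 and -0.79 in experiment 3, and its mean of -0.59 (SE 0.22, n = 3 pairs) had p values in limma of 0.0315 unadjusted and 0.995 after Benjamini-Hochberg adjustment.

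Of the enzymes that make triglyceride, 0 of 16 passed, and 1 was lower and 0 higher at an unadjusted p under 0.05. The list median was -0.075 overall and -0.23 in experiment 2, where 5 of 16 were lower by at least 0.5. Gpat3, which starts triglyceride synthesis in fat cells, stood at 0.18, -0.91 and -0.10 in the 3 experiments, and Gpam, its mitochondrial counterpart, at 0.10, -0.66 and -0.13. The rest of those 5, Agpat2, Dgat1 and Dgat2, were higher in the irradiated culture of experiment 3, at 0.38, 0.27 and 0.15. Agpat1, which adds the second fatty acid, differed by -0.18, -0.27 and -0.23 (mean -0.23, SE 0.077, limma p 0.0230, or 0.995 with Benjamini-Hochberg adjustment). Its groups did not overlap, as in 8.26% of all genes. Its dimmer probe set is not shown, nor are those of Gpam, Dgat1 and Dgat2. Among 12 fat-cell regulators 0 passed and 10 had a mean below 0, where 54.6% of all genes did. By experiment 3, 9 and 7 of the 12 were below 0, where the medians over all genes were -0.03, -0.01 and 0. Without experiment 2 the median of the 12 was -0.0075. In experiment 2, 4 of the 12 were lower by at least 0.5, Pparg, Cebpa and Mlxipl among them. Pparg stood at 0.09, -0.55 and -0.11, Cebpa, its partner in fat-cell formation, at 0, -0.61 and 0.08, and Mlxipl, a glucose-responsive factor of lipid synthesis, at 0.03, -1.03 and -0.09.

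**Figure D4:**
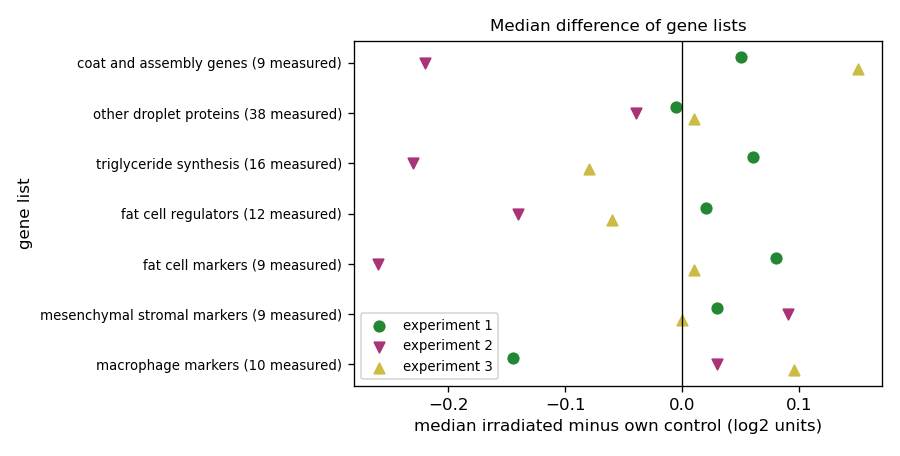
Median difference between irradiated culture and own control in log2 units (horizontal axis) for each gene list (vertical axis), with 1 symbol per experiment. Coat and assembly genes, triglyceride synthesis and fat cell markers have medians of -0.22, -0.23 and -0.26 in experiment 2, while stromal and macrophage markers have 0.09 and 0.03.

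The genes whose course over the 6 arrays was nearest to that of a coat or assembly gene were sought for the members whose SD over the arrays reached the 90th percentile of all genes (0.206 log2 units), which were Plin4, Cidec and Adig. Nearness was the mean absolute difference between 2 genes' log2 values after each was set to its own mean, over 9091 other genes at or above the median level. Genes picked this way share the member's course over these 6 arrays by the choice itself. Nearest to Plin4 were Agpat2, an acyltransferase of triglyceride synthesis (0.058 log2 units), the integrin Itga6 (0.073) and Acaca, acetyl-CoA carboxylase (0.074). Agpat2 differed by 0.04, -0.90 and 0.38 in the 3 experiments, beside 0.06, -0.87 and 0.33 for Plin4. Nearest to Cidec were the galactosyltransferase B3galt2 (0.075), Mgll (0.091) and again Agpat2 (0.093). Adig was nearest to Mlxipl (0.054), the coactivator Ppargc1b (0.076) and Abhd15 (0.083), which stood at -1.03, -0.78 and -0.79 in experiment 2. Plin4 and Cidec were higher and Adig lower in the irradiated culture of experiment 3.

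**Figure D5:**
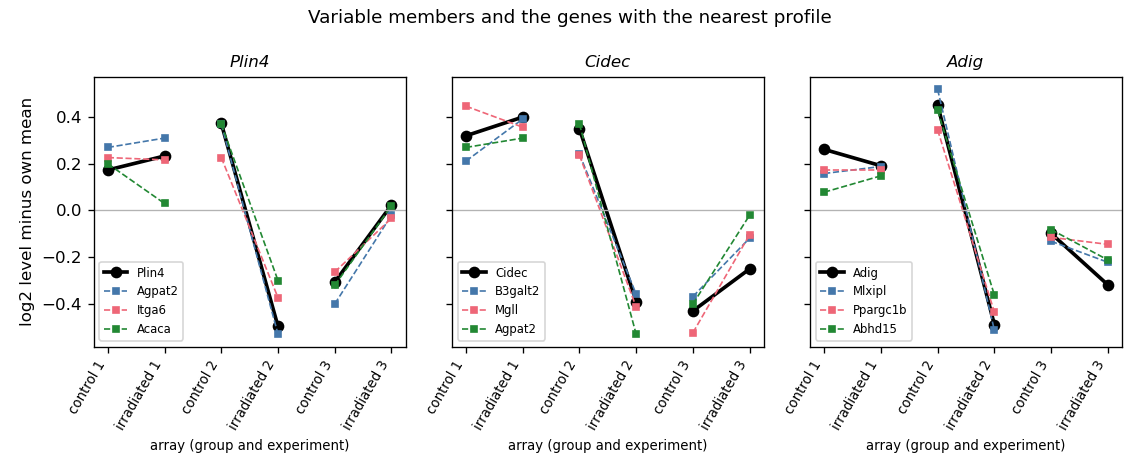
Log2 level minus the gene's own mean (vertical axis) on each array (horizontal axis) for Plin4, Cidec and Adig (black) and the 3 genes nearest to each (coloured, dashed). Lines join the cultures of 1 experiment. Every curve is lower at irradiated than at control in experiment 2, with differences of -0.87 for Plin4, -0.74 for Cidec and -0.94 for Adig. The coloured genes were picked for nearness on these same arrays, so their likeness follows from the choice.

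Markers were read for the cell types these cultures could hold. Of 9 measured fat cell markers 8 reached the level of the median gene. In experiment 2, 9 of 9 were lower, where the median over all genes was -0.01. Their list mean ranged from 10.15 to 10.47 in the controls and from 10.03 to 10.34 in the irradiated cultures. In that experiment Fabp4, a carrier of fatty acids, stood at -0.12, Adipoq, which encodes adiponectin, at -0.26 and the glucose transporter Slc2a4 at -0.61. In bulk RNA, fewer fat cells and less of these transcripts per fat cell cannot be told apart. Of 9 measured stromal markers 8 were at or above the median and Thy1 (mean level 3.88) was not. In experiment 2 they were lower in 2 of 9 and had a median of 0.09, beside -0.01 over all genes. The highest, Nt5e, Itgb1 and Pdgfrb, stood at 0.27, 0.30 and 0.28, and Thy1 was the lowest at -0.19. Macrophage markers were bright as well, with 9 of 10 at or above the median and a list mean of 10.70 to 10.98 in the controls and 10.56 to 11.15 in the irradiated cultures. Macrophages also carry Plin2-coated droplets, and their markers had medians of -0.145, 0.03 and 0.095 in experiments 1 to 3, beside -0.16, -0.14 and 0.16 for Plin2. They were lower in 10 of 10 in experiment 1, where the median over all genes was -0.03. In experiment 3 they were lower in 4 of 10, with Cd14 at 0.79, Itgam at 0.65 and Mrc1 at -0.01. Fcgr1, dimmer than the median gene, stood at -0.20, -0.25 and -0.34 in the 3 experiments. Markers of brown fat (1 of 6 at or above the median), skeletal muscle (0 of 8), endothelium (0 of 6) and liver cells (0 of 4) were mostly dim, and Ucp1 and Cidea, which define brown fat, had mean levels of 4.49 and 4.04. The part of any of these in the values of the coat and assembly genes was not tested.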

How the data were processed

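Expression was measured on 6 Affymetrix mouse arrays, 1 per culture, from 200 ng total RNA each. The authors deposited 1 log2 value per probe set and array. RMA, affy and limma are named, per the submitters' processing notes, with versions not given in the sources used here. Base 2 was inferred from the range, 1.73 to 14.53. RMA as commonly run gives all arrays 1 distribution, which hides any shift shared by all transcripts. Array medians lay between 5.01 and 5.05. Arrays have no read depth, and their number limits the precision.

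Of 45101 probe sets 64 were controls, and 34945 of the rest had 1 symbol. The brightest stood for each of 18193 genes, with no filter. Dimmer probe sets are shown for the 9 measured genes alone. All 11 probe sets of the 9 measured genes matched the RefSeq gene table (GRCm38.p6) by Entrez identifier. limma 3.58.1 in R 4.3.3 (lmFit, eBayes) fitted irradiated minus control across all genes, blocked by experiment number, with Benjamini-Hochberg adjustment and 2 residual degrees of freedom. Pairs follow the series' design text, which puts a control beside each irradiated culture. In each experiment the arrays' departures from their group means correlated at 0.15, -0.09 and -0.01. The code was tested on simulated data. The members and lists were chosen with earlier results of these data known. Named genes were all members, the 3 of each other list with the largest mean difference at or above the median level, Pparg, Fabp4, Adipoq, Pnpla2 and Abhd5, and the nearest genes by profile. Genes outside that rule (Vps13c, Pnpla3, Nceh1, Hilpda, Dgat1, Dgat2, Thy1, Fcgr1, Ucp1, Cidea) were named after their values were seen. Dio2, which the rule chose among the brown fat markers, is not shown. Alternatives changed the block, the variance model, the filter, the probe set, the centring and the experiments included.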

Additional observations from a re-analysis of the deposited data

How the results depend on the processing

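The 3 pairs limit the precision, no gene is called absent without detection calls, and hybridization batches were not tested. Adig and Fitm1 kept their direction in all 11 other settings and Plin5 in the 10 that gave it a value, since it is dimmer than the median gene. Changes of block, variance model and filter leave every gene's mean as it was. With 1 probe set each, Adig and Fitm1 could change sign only by the centring or the experiments left out. The most variable probe set turned Bscl2 to 0.0067. Leaving out 1 experiment at a time gave -0.33 to 0.13 for Cidec, -0.235 to 0.075 for Fitm2 and -0.405 to 0.195 for Plin4, each above 0 only without experiment 2. It gave -0.15 to 0.01 for Plin2, which was exactly 0 without experiment 2, and -0.135 to 0.09 for Plin3, above 0 only without experiment 1. The median of the 9 genes moved between -0.15 and 0.075 over the same 3 settings. limma called 0 genes with no replicate block, as with it, and 649 against 603 at an unadjusted p under 0.05. With genes below the median level left out the count was 240, from fewer genes tested. An ordinary paired test without moderation called 8 genes, none of them a coat or assembly gene. The other settings called 0 genes, and in no setting did a coat or assembly gene pass.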
